A study of Homo sapiens with 80 samples.

Results

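Transcript levels of 10 regulators of apoptosis from the BCL2 family were followed in Jurkat T cells, an immortalised human T lymphocyte line, under hypergravity and heat shock. The genes were MCL1, BCL2, BCL2L1, BCL2L11, PMAIP1, BBC3, BID, BAD, BAX and BAK1. They were chosen by symbol, through their Ensembl identifiers, as 10 of the 60663 genes with a usable record in the deposited count table. RNA was depleted of ribosomal RNA and sequenced from 80 libraries in 15 groups. Cells in serological pipettes were held at 9 g and lysed at once, with 6 libraries for each exposure. The exposures are named by their length, hypg20s and hypg75s in seconds and hypg3, hypg5, hypg7, hypg9, hypg15 and hypg60 in minutes. The 7 shorter exposures shared a control of 6 libraries kept at 1 g for 15 min (Ctrl), and hypg60 had its own control of 6 libraries kept at 1 g for 60 min (Ctrl60), whose column names carry the words plus HEPES, which those of hypg60 do not. In a separate experiment with 4 libraries a group, cells were spun at 300 g for 5 min and lysed 1 min (wait1min), 4 min (wait4min) or 15 min (wait15min) after the stop as their titles give it, or were placed in a 42 °C water bath (heat). Both treatments were compared with 4 directly fixed libraries (Ctrl300). In the count table the columns of wait1min carry the word instant and those of wait4min carry 1min, so the waiting times before these 2 groups were lysed are uncertain. Neither a genotype nor a drug distinguished the groups, and every library came from the same cell line, with no label stating separate cultures, so p-values measure the spread between these libraries.

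Library 75 of hypg15 was left out because its column was empty from chromosome 4 through chromosome 9 and for X, Y and the mitochondrial genome, which leaves BAK1 on chromosome 6 with a count of 0. The remaining 79 libraries held between 22634465 and 41893490 counts. Library numbers run from 69 to 80 in hypg3 and hypg15 and from 1 to 48 in Ctrl and the other groups at 9 g, so those 2 times and the range of library numbers cannot be told apart. All 10 genes passed the filter on low counts in every comparison, and none was too low to test. The lowest count of any member in a library used was 90, for BBC3. T cell markers were present throughout: group means of CD3E ran from 372 to 660.1 CPM (counts per 1e6 counts of the library) and those of LCK from 625 to 1387, whereas the B cell gene MS4A1 and the myeloid gene CSF1R stayed under 0.05 CPM. The B cell marker CD79A was present, at 30.3 to 65.5 CPM. Among the other B cell, myeloid and red cell markers the highest group means were those of CD14 (0.254 to 0.494 CPM) and ITGAM (up to 0.239). CD14 was called as higher at hypg60 (+0.97, adjusted p = 0.00683, edgeR), and its part in the results was not tested.

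BCL2 family proteins decide whether the outer membrane of the mitochondrion is opened, the step that commits most cells to intrinsic apoptosis. Pro-survival members, here MCL1, BCL2 and BCL-XL (the long product of BCL2L1), hold the pore formers BAX and BAK (from BAK1) in check. Members that share only the BH3 domain with the rest, namely BIM (BCL2L11), NOXA (PMAIP1), PUMA (BBC3), BID and BAD, are raised or activated by stress and bind the pro-survival proteins or the pore formers. In T cells, BCL2 and MCL1 sustain survival and BIM removes cells during selection and after a response. NOXA binds mainly MCL1, BAD binds BCL2 and BCL-XL, and BID is cleaved by caspase 8 on the route from death receptors. Much of this control acts on protein, which these libraries do not measure.

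Levels per length were ordered first. Values are FPKM, here the CPM of a gene divided by its summed exon length in kilobases. In the 6 libraries of Ctrl, BCL2L1 was highest at 51.3 ± 2.63 FPKM (mean ± SD), above BAD at 42.3 ± 2.68, BID at 35.1 ± 1.47 and BAK1 at 26.2 ± 1.33. BAX at 16.0 ± 0.555 FPKM and MCL1 at 15.0 ± 0.918 FPKM overlapped in range. The 4 lowest were BCL2L11 at 5.43 ± 0.196, PMAIP1 at 3.25 ± 0.237, BBC3 at 2.37 ± 0.112 and BCL2 at 1.94 ± 0.282 FPKM. BBC3 and BCL2 also overlapped in range, and the libraries of the other neighbours in this order did not. The ratio of BCL2L1 to BCL2 per length was 27.0 ± 5.12 (n = 6). In Ctrl300 the order differed in 2 places, with BCL2 above BBC3 and MCL1 above BAX, and overlapping ranges were those of MCL1 with BAX and of BID with BAD.

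**Figure D1:**
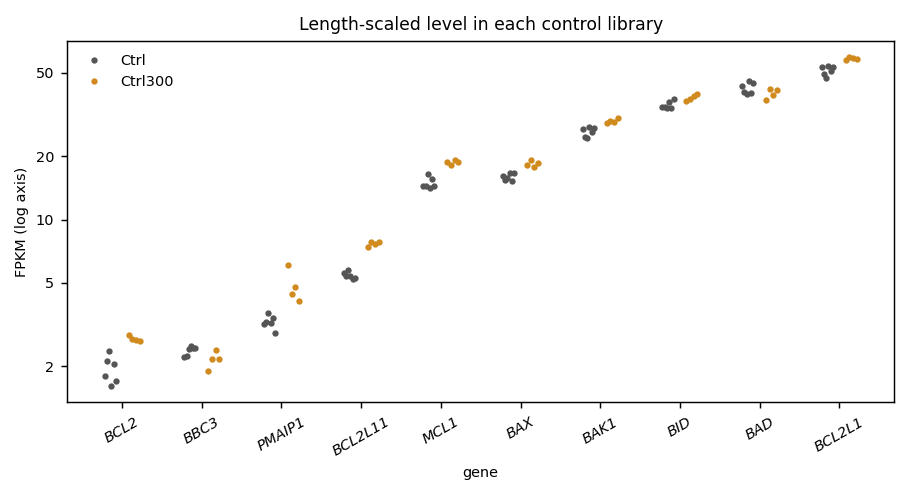
Level of each member per length (FPKM, log axis) in every control library, with Ctrl in grey (6 libraries) and Ctrl300 in orange (4 libraries). Genes are placed in order of their mean in Ctrl, from BCL2 at 1.94 to BCL2L1 at 51.3 FPKM, and each point is 1 library.

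The members lie on 8 chromosomes in GRCh38 (Ensembl 104), each counted over its annotated exons. PMAIP1 (ENSG00000141682) is on chr18:59899996-59904305 of the forward strand and BCL2 (ENSG00000171791) on chr18:63123346-63320128 of the reverse strand, 3.22 Mb apart. BAX (ENSG00000087088, chr19:48954815-48961798, forward) and BBC3 (ENSG00000105327, chr19:47220822-47232766, reverse) share chromosome 19. The rest are MCL1 (ENSG00000143384, chr1:150560895-150579738, reverse), BCL2L11 (ENSG00000153094, chr2:111119378-111168445, forward), BAK1 (ENSG00000030110, chr6:33572547-33580293, reverse), BAD (ENSG00000002330, chr11:64269830-64284704, reverse), BCL2L1 (ENSG00000171552, chr20:31664452-31723989, reverse) and BID (ENSG00000015475, chr22:17734138-17774770, reverse). Transcript GC content ran from 37.2% in PMAIP1 through 45.1% in MCL1, 45.6% in BCL2, 45.7% in BCL2L11, 49.7% in BID, 56.9% in BCL2L1, 58.8% in BAK1, 58.9% in BAX and 66.3% in BAD to 69.7% in BBC3. BAD overlaps GPR137 and BCL2L11 overlaps the host gene of a microRNA, each on the opposite strand, and the counting used strand. Summed exon length ran from 1708 bases in BAD to 12612 in BCL2.

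The 250 bases before a start site are shown for PMAIP1 and BAD, whose log2 fold changes after 300 g were the highest and the lowest without a correction for GC content. With it PMAIP1 was lower than its control and BID was below BAD. The sequences are from RefSeq (GRCh38.p14), at chr18:59899746-59899995 on the forward strand and chr11:64284705-64284954 on the reverse strand, each written 5′ to 3′ along its gene. Capitals mark matches to any of 7 motifs searched on both strands.
PMAIP1: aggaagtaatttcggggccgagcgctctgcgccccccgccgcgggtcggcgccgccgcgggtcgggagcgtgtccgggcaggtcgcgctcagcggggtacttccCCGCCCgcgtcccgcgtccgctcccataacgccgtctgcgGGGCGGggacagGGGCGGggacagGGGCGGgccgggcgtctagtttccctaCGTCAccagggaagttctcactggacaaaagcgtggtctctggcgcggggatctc
BAD: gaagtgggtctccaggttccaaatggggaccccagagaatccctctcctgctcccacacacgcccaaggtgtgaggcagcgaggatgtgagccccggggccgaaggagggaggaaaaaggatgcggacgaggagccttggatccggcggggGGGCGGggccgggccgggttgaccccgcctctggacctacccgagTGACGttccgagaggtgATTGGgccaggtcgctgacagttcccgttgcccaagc
The motifs were the GC box GGGCGG, held by 42.6% of 35116 windows of this length in the table, the CCAAT box CCAAT (32.0%), the TATA box TATAAA (10.7%), the heat shock pair GAANNTTC (5.78%), the E-box CACGTG (6.34%), the cyclic AMP element core TGACG (21.2%) and the AP-1 letters TGANTCA (6.57%). The PMAIP1 window held 4 GC boxes and 1 TGACG, the latter as its reverse complement, and the BAD window held 1 GC box, 1 CCAAT and 1 TGACG. The letters of the TATA box, the heat shock pair, the E-box and AP-1 were found in neither. GC content was 72.8% and 66.4% in these windows, against a median of 58.0% over all windows. The starts of 9 members were found in the table. A further start window of BAD, at chr11:64284666-64284915 with 69.6% GC, is not shown.

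After 300 g for 5 min, 8 of the 10 members had changed at each of the 3 waiting times, 2 upward and 6 downward. BCL2 stood at 1.99 times its control level at wait1min and PMAIP1 at 2.55 times. BCL2L1, BAD, BAK1, BBC3, BID and BAX all fell. MCL1 and BCL2L11 did not pass the test at any waiting time. With a correction for GC content the tally was different: all 10 were called at each waiting time, BCL2 alone as higher, and PMAIP1 was lower than its control (-0.20, -0.23 and -0.35). Changes of this extent were general, since of all genes tested 41.4% rose and 40.1% fell at wait1min, 41.7% and 40.6% at wait4min, and 41.8% and 40.5% at wait15min. These shares are without the correction, and so is the count of 8 members, which lay near that background. The share of all genes called with the correction was not set beside the 10. The correction also lowered the median of all genes at wait1min. Of 11 T cell markers, 2 rose and 8 fell at each waiting time. The median log2 fold change over the members was -0.72, -0.72 and -0.73 in that order, against 0.01 over all genes at each time. Relative levels are what was measured: fewer cells and less RNA of a gene per cell cannot be told apart in pooled RNA. Where libraries are said not to overlap their controls, here and below, the share of all genes that do so was not counted.

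**Figure D2:**
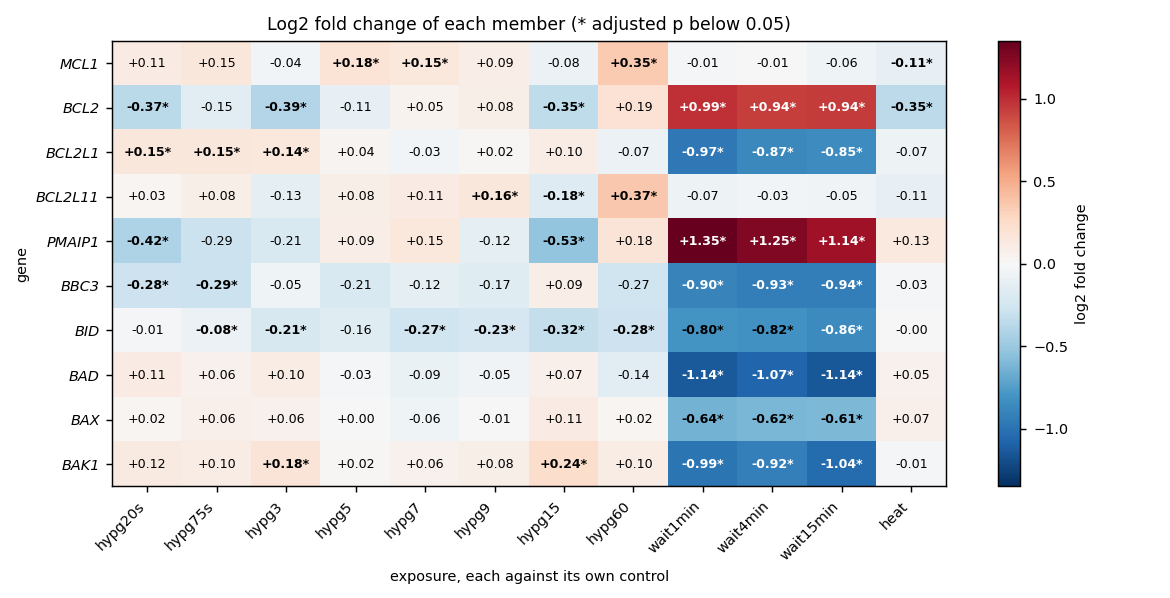
Log2 fold change of each of the 10 members (rows, ordered pro-survival, BH3 only, pore formers) in 12 exposures (columns), each against its own control. Colour runs from blue (lower) to red (higher) and an asterisk marks an adjusted p under 0.05; the 3 columns of 300 g hold values from -1.14 (BAD) to +1.35 (PMAIP1), and the value farthest from 0 at 9 g or in heat is -0.53 (PMAIP1 at hypg15).

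Pro-survival members moved apart after 300 g. BCL2 measured 35.6, 33.8, 33.7 and 33.2 CPM in the libraries of Ctrl300. It measured 66.3, 67.0, 68.5 and 70.7 at wait1min, 65.5, 64.8, 65.4 and 65.9 at wait4min and 67.4, 63.1, 65.9 and 65.7 at wait15min. Every spun library lay above every control, at log2 fold changes of +0.99 ± 0.043 (SE), +0.94 ± 0.037 and +0.94 ± 0.040 (adjusted p = 5.18e-13, 4e-16 and 6.98e-14). Offsets for GC content or exon length, given below, made the rise at wait1min smaller.

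BCL2L1, the member with the most transcript, went the other way. Its controls held 241, 249, 248 and 243 CPM and the wait1min libraries 129, 126, 123 and 128. Values of 136, 136, 134 and 132 followed at wait4min and 139, 139, 131 and 136 at wait15min. All 12 spun libraries were below all controls, with log2 fold changes of -0.97 ± 0.034, -0.87 ± 0.027 and -0.85 ± 0.030. The ratio of BCL2L1 to BCL2 per length went with both, from 21.6 ± 0.834 in Ctrl300 (mean ± SD, n = 4) to 5.58 ± 0.203 at wait1min, 6.18 ± 0.131 at wait4min and 6.26 ± 0.272 at wait15min. These ratios carry no correction for GC content, which made the changes of both genes at wait1min smaller.

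MCL1, whose protein and transcript are both short lived, kept overlapping values. The libraries measured 117, 114, 119.6 and 117 CPM in Ctrl300, 113, 125, 114 and 113 at wait1min, 115, 119, 117 and 115 at wait4min and 113, 115, 115 and 105 at wait15min. Its log2 fold changes were -0.012 ± 0.041, -0.0067 ± 0.029 and -0.058 ± 0.036 (adjusted p = 0.80, 0.836 and 0.144). Scaling by total counts alone moved the median of all genes to between 0.25 and 0.27, and MCL1 with it to between 0.20 and 0.25, which was then called as higher.

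BH3-only members split as well. PMAIP1, which encodes NOXA, measured 13.2, 9.62, 10.4 and 8.91 CPM in Ctrl300 and 24.8, 29.2, 25.1 and 28.8 at wait1min. The later libraries held 25.2, 25.1, 25.2 and 25.1 at wait4min and 25.0, 22.8, 22.1 and 23.3 at wait15min. No spun library overlapped a control. The log2 fold changes of +1.35 ± 0.096, +1.25 ± 0.076 and +1.14 ± 0.085 were the largest of any member (adjusted p = 4.29e-10, 8.58e-13 and 3.44e-10). This direction was turned by a correction for GC content, under which PMAIP1 was lower than in Ctrl300. At wait1min that correction also lowered the median of all genes, as given below.

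BAD, an antagonist of BCL2 and BCL-XL, had the lowest fold changes without a correction for GC content. Its control libraries measured 63.7, 71.3, 66.6 and 70.6 CPM. The spun ones measured 31.9, 32.5, 29.8 and 30.5 at wait1min, 31.2, 32.5, 33.5 and 32.5 at wait4min and 32.1, 32.0, 31.4 and 27.9 at wait15min, all below the controls. Log2 fold changes were -1.14 ± 0.051, -1.07 ± 0.044 and -1.14 ± 0.053. With that correction BID was lower, at -0.73 against -0.63 in BAD at wait1min.

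BID, the link from death receptors to mitochondria, measured 162, 166, 172 and 175 CPM in Ctrl300 and 95.5, 102, 99.2 and 92.4 at wait1min. It measured 99.4, 93.9, 92.8 and 96.0 at wait4min and 96.3, 92.9, 92.8 and 90.3 at wait15min, again with no overlap. The log2 fold changes were -0.80 ± 0.041, -0.82 ± 0.034 and -0.86 ± 0.036.

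BBC3, which encodes PUMA, had few reads, at 6.07, 6.87, 7.61 and 6.87 CPM in Ctrl300 and 3.47, 3.79, 4.03 and 3.54 at wait1min. Later values were 3.49, 3.47, 3.58 and 3.92 at wait4min and 3.94, 3.62, 3.28 and 3.56 at wait15min. Even so no spun library reached a control, with log2 fold changes of -0.90 ± 0.097, -0.93 ± 0.094 and -0.94 ± 0.098. BCL2L11, which encodes BIM, showed no call: its log2 fold changes were -0.068 ± 0.043, -0.033 ± 0.042 and -0.046 ± 0.041 (adjusted p = 0.150, 0.476 and 0.302). This depended on the scaling. With the correction for GC content BCL2L11 was called as lower (-0.33, -0.27 and -0.29). With total counts alone, which also raised the median of all genes, it was called as higher (+0.18, +0.23 and +0.22). Its levels of 49.3, 52.2, 51.0 and 51.9 CPM in Ctrl300 overlapped those of all spun groups, which ran from 46.3 to 51.8.

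Both pore formers fell. BAK1 went from 63.9, 65.2, 64.5 and 67.2 CPM in Ctrl300 to 33.6, 31.8, 32.9 and 34.1 at wait1min, 35.2, 34.5, 34.8 and 33.4 at wait4min and 32.0, 33.1, 31.7 and 30.4 at wait15min. BAX started at 47.1, 49.9, 45.9 and 48.2 CPM and measured 30.7, 29.7, 32.3 and 30.2 at wait1min, 30.4, 31.6, 31.1 and 31.4 at wait4min and 30.8, 32.9, 31.5 and 30.0 at wait15min. No spun library overlapped a control for either gene. The fall was deeper in BAK1, at log2 fold changes of -0.99, -0.92 and -1.04, than in BAX, at -0.64, -0.62 and -0.61, though the difference between the genes was not tested.

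**Figure D3:**
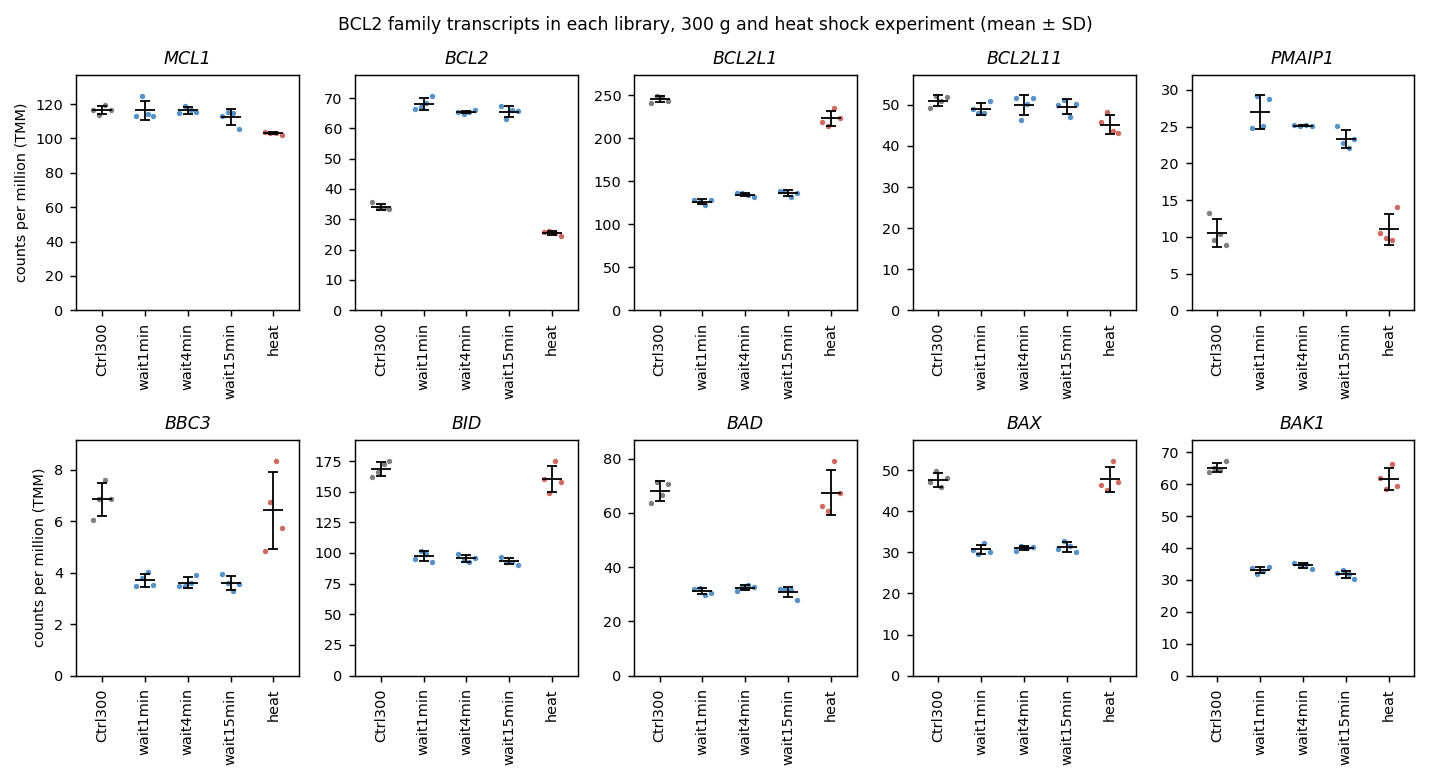
CPM of each member in every library of the 300 g and heat experiment (4 libraries a group; grey, Ctrl300; blue, 300 g; red, heat; bars, mean ± SD). BCL2 and PMAIP1 stand above their controls in all 12 spun libraries, 6 members stand below, MCL1 and BCL2L11 overlap their controls, and the heat libraries lie near Ctrl300 for most members. The share of all genes with no overlap was not counted.

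Between wait15min and wait1min no member differed (edgeR, 0 of 10), against 0.149% of all genes tested. At an unadjusted p under 0.05 there were 2, BCL2L1 (+0.12 ± 0.032, adjusted p = 0.192) and PMAIP1 (-0.21 ± 0.060, adjusted p = 0.215), and the Wald test of DESeq2 also called 0.

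Fold changes were related to base composition after 300 g and at 9 g. Across the 10 members the rank correlation of log2 fold change with transcript GC content was -0.82, -0.90 and -0.83 at wait1min, wait4min and wait15min, and across all genes tested it was -0.69, -0.67 and -0.66. With summed exon length it was 0.47, 0.46 and 0.48 over the members and 0.16 to 0.18 over all genes. At 9 g the correlation with GC content over all genes was positive at each time, from 0.10 at 7 min and 0.31 at 9 min to 0.673 at 15 min and 0.675 at 3 min, and over the members it ran from -0.73 at 7 min to 0.72 at 15 min. In heat it was 0.16 over all genes and 0.26 over the members. These genes share their libraries, so the correlations are descriptions. An offset that removes each library's smooth trend of counts on GC content gave PMAIP1 log2 fold changes of -0.20, -0.23 and -0.35, all called as lower (adjusted p = 0.0132, 0.000651 and 4.69e-05). BCL2 remained higher at +0.72, +0.68 and +0.68. MCL1 (-0.35, -0.33 and -0.38) and BCL2L11 (-0.33, -0.27 and -0.29) were called as lower under it, so that all 10 members were called and BCL2 alone was higher. The other 6 stayed lower, BAD at -0.63, BAK1 at -0.54, BCL2L1 at -0.58, BBC3 at -0.38, BAX at -0.20 and BID at -0.73 at wait1min. That offset moved the median of all genes to -0.12 at wait1min. The share of all genes called under it was not set beside these counts.

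An offset for exon length left PMAIP1 at +1.33 at wait1min and reduced BCL2, the longest member, to +0.19, while the median of all genes moved to -0.32. With both offsets together, an alternative added after the data were seen, BCL2 stood at +0.49, +0.45 and +0.44 and was called each time, and PMAIP1 stood at -0.15 (not called), -0.17 and -0.28 (both called as lower). The part of GC content and length in these changes was not tested.

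**Figure D4:**
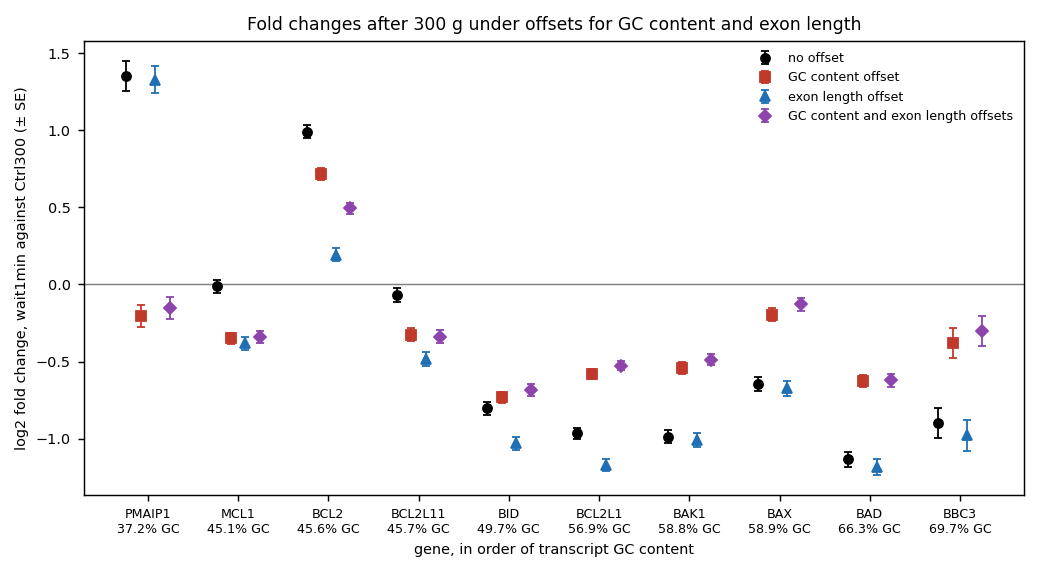
Log2 fold change (± SE) of each member at wait1min against Ctrl300 without an offset (black circles), with an offset for GC content (red squares), for exon length (blue triangles) and for both (purple diamonds). Genes are in order of transcript GC content; PMAIP1, the lowest in GC, moves from +1.35 to -0.20 under the GC offset, and BCL2 stays above 0 in each case.

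After heat for 5 min in the water bath, none of 10 members rose and 2 fell, while 10.6% of all genes tested rose and 10.2% fell. The share of members called was near that background. BCL2 measured 25.7, 26.2, 25.4 and 24.6 CPM in the heat libraries, all below its controls, and changed by -0.35 ± 0.049 (adjusted p = 9.49e-05). MCL1 measured 104, 103, 103 and 102 CPM, also all below, and changed by -0.11 ± 0.031 (adjusted p = 0.0176). The call of MCL1 was lost without Ctrl300 replicate 51 or heat replicate 68 and when scaled by total counts alone (-0.080). BCL2L1 (-0.069 ± 0.029, adjusted p = 0.113) and BCL2L11 (-0.11 ± 0.049, adjusted p = 0.147) also lay below every control without passing the test. The remaining 6 ranged from -0.029 (BBC3) to +0.13 (PMAIP1). Set directly against wait1min, all 10 members differed, where 81.1% of all genes did, and DESeq2 called 9, without BCL2L11. Heat minus wait1min was -1.44 for BCL2, -1.32 for PMAIP1 and +1.09 for BAD on the log2 scale. PMAIP1, MCL1 and BCL2L11 turned sign in this contrast under the GC offset (+0.33, +0.20 and +0.18).

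At 9 g the changes were small, and between 1 and 5 members passed the test at each time. After 20 s, 1 member rose and 3 fell, where 6.66% and 8.58% of all genes did. After 75 s, 1 rose and 2 fell (background 16.8% and 14.4%). After 3 min, 2 rose and 2 fell (16.9% and 24.4%), and after 5 min 1 rose and 0 fell (4.33% and 1.69%). After 7 min and 9 min, 1 rose and 1 fell each time, against 6.64% and 6.19% at 7 min and 11.3% and 8.34% at 9 min. After 15 min, 1 rose and 4 fell (25.4% and 27.9%), and after 60 min, 2 rose and 1 fell (17.1% and 13%). Each gene is 10% of the list, so these counts cannot be set apart from the background. With all groups in a single model the calls were PMAIP1 alone at 20 s and BBC3 alone at 75 s. Those of BCL2, BCL2L1 and BBC3 at 20 s and of BCL2L1 and BID at 75 s were lost. When 3 surrogate variables were added as covariates, the calls kept were BBC3 at 20 s, BID at 3, 7 and 15 min, MCL1 at 5 and 60 min and BCL2L11 at 60 min, and the others were lost. Shares of all genes called under these 2 settings were not set beside these calls. The 2 control groups differed in none of the 10 (edgeR, 0 called, 1 at an unadjusted p under 0.05; DESeq2, 0), against 0.0124% of all genes. The 1 was BCL2L11, at -0.14 ± 0.039 in Ctrl60 against Ctrl.

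**Figure D5:**
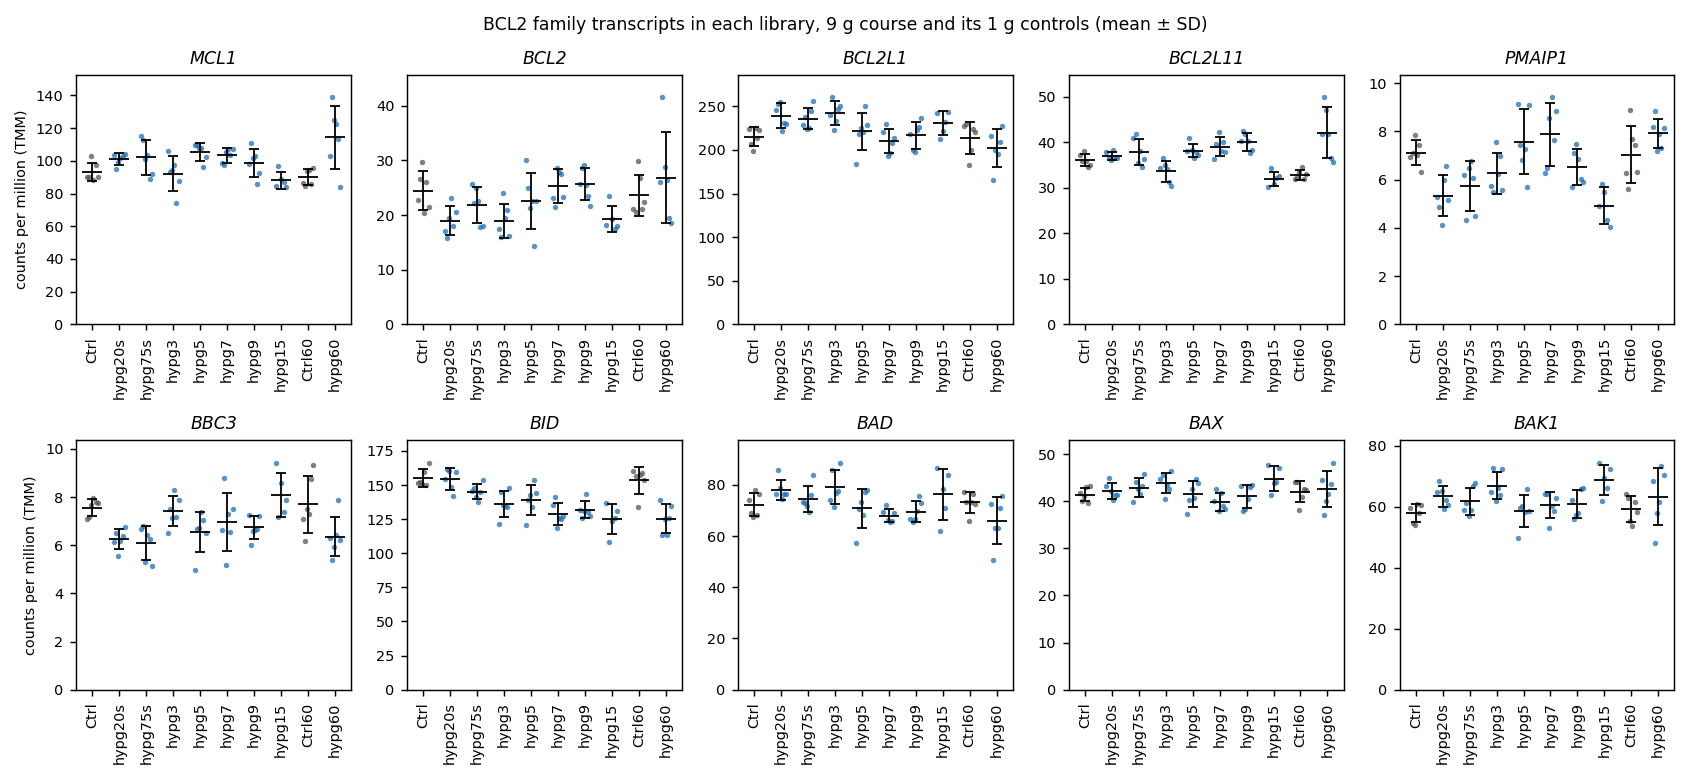
CPM of each member in every library of the 9 g course (6 libraries a group, 5 in hypg15; grey, 1 g controls; blue, 9 g; bars, mean ± SD; linear axes from 0). The mean of BID goes from 155 CPM in Ctrl to 125 in hypg15, and the widest spread of MCL1 and BCL2L11 is in hypg60.

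BID lay below its control in 8 of 8 comparisons at 9 g, as 21.6% of all genes did, and passed the test in 6. Of all genes, 3.68% were called as lower in at least 6. The 7 comparisons that share Ctrl are not independent of each other. Ctrl ran from 150.2 to 166 CPM with a median of 152, hypg20s from 142 to 162 CPM with a median of 157, and hypg75s from 137 to 153 CPM with a median of 146. At hypg3 the range was 121 to 148 (median 135), at hypg5 121 to 154 (median 141), at hypg7 119 to 141 (median 127) and at hypg9 126 to 144 (median 131). The hypg15 libraries reached 108 to 137 (median 126) CPM, and hypg60 113 to 139 (median 126) against 134 to 160.3 (median 157) in Ctrl60. At hypg3, hypg7, hypg9 and hypg15 every library lay below every control.

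The log2 fold change of BID was -0.013 ± 0.037 at 20 s (adjusted p = 0.844), -0.082 ± 0.029 at 75 s (0.0427) and -0.21 ± 0.042 at 3 min (0.000995). It was -0.16 ± 0.053 at 5 min (0.0896), -0.27 ± 0.044 at 7 min (0.00202) and -0.23 ± 0.038 at 9 min (0.000758). The later values were -0.32 ± 0.053 at 15 min (0.000178) and -0.28 ± 0.060 at 60 min (0.00268). Under the alternatives BID was called as lower in 3 of 8 comparisons (3 surrogate variables as covariates) to 7 of 8 (GC offset and DESeq2), and as higher in none.

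Pro-survival members at 9 g moved in different directions. MCL1 rose at 5 min (+0.18 ± 0.047, adjusted p = 0.0339), 7 min (+0.15 ± 0.042, 0.0307) and 60 min (+0.35 ± 0.098, 0.0147). Its libraries ran from 88.3 to 103 CPM with a median of 90.2 in Ctrl, from 96.2 to 109.8 CPM with a median of 108 in hypg5 and from 97.1 to 107 CPM with a median of 104 in hypg7, and the ranges overlapped. In hypg60 they ran from 83.8 to 139 CPM with a median of 118, the widest of any group for this gene, against 84.5 to 95.8 (median 90.2) in Ctrl60. The rise at 5 min was not called by edgeR with RLE size factors, without the filter on low counts or with all groups in a single model, in which it was +0.18. The rise at 7 min was not called without the filter, in the single model, with the exon length offset or with 3 surrogate variables (adjusted p = 0.0692, 0.182, 0.0762 and 0.0962). Over the 8 comparisons, MCL1 was called as higher in 5 with the GC offset, with both offsets or with 3 surrogate variables. It was called as higher in 4 with the exon length offset, in 2 with RLE size factors and in 1 without the filter or in the single model.

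BCL2 fell at 20 s, 3 min and 15 min, and in no other exposure at 9 g did it pass the test. Ctrl ran from 20.3 to 29.7 CPM with a median of 24.3, hypg20s from 15.8 to 23.1 CPM with a median of 18.7, hypg3 from 15.9 to 24.0 CPM with a median of 18.4 and hypg15 from 17.4 to 23.4 CPM with a median of 18.3, so the ranges overlapped at each of these times. Log2 fold changes were -0.37 ± 0.10, -0.39 ± 0.12 and -0.35 ± 0.10 (adjusted p = 0.0265, 0.0144 and 0.0108). With 3 surrogate variables the values were -0.12, +0.019 and +0.26, so that the last 2 changed sign and none of the 3 was called, while BCL2 was called as higher at 60 min (+0.40). Without these variables, the other 5 values ran from -0.15 at 75 s to +0.19 at 60 min.

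BCL2L1 rose in the 3 shortest exposures by nearly the same amount, +0.15 ± 0.042 at 20 s, +0.15 ± 0.036 at 75 s and +0.14 ± 0.040 at 3 min (adjusted p = 0.0281, 0.00599 and 0.00996). The libraries measured 198 to 225 (median 219) CPM in Ctrl, 221 to 255 (median 238) in hypg20s, 224 to 256 (median 233) in hypg75s and 222 to 260.4 (median 243) in hypg3. From 5 min on its values lay between -0.075 and +0.096 with no call. None of the 3 rises was called with the GC offset (+0.078, +0.029 and +0.016). Of 8 comparisons, 2 were then called as lower, with values down to -0.22. With 3 surrogate variables 1 was called as lower and none as higher, and the exon length offset gave 4 as higher.

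Among the BH3-only members, BCL2L11 stood out at 60 min. All 6 libraries of hypg60, from 35.6 to 49.9 CPM with a median of 41.8, lay above those of Ctrl60, from 31.9 to 34.6 CPM with a median of 32.7, a change of +0.37 ± 0.083 (adjusted p = 0.00419). Against Ctrl, from 34.7 to 38.1 CPM with a median of 35.9, the hypg60 libraries overlapped, and BCL2L11 was the member at an unadjusted p under 0.05 between the controls, lower in Ctrl60. HEPES, named in the Ctrl60 columns alone, and the exposure cannot be told apart here or for any other member at 60 min. BCL2L11 rose at 9 min (+0.16 ± 0.043, adjusted p = 0.0179) and fell at 15 min (-0.18 ± 0.053, adjusted p = 0.0108), where all 5 libraries lay below Ctrl. The fall was -0.059 with the GC offset and was not called. The rise at 9 min was not called with 3 surrogate variables (+0.12, adjusted p = 0.377) or without the filter on low counts (+0.15, adjusted p = 0.0696).

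PMAIP1 fell at 20 s and 15 min. Ctrl ran from 6.30 to 7.86 CPM with a median of 7.07, hypg20s from 4.14 to 6.54 CPM with a median of 5.21 and hypg15 from 4.02 to 5.82 CPM with a median of 4.92, the last with no overlap. Log2 fold changes were -0.42 ± 0.099 and -0.53 ± 0.10 (adjusted p = 0.0138 and 0.000605). With the GC offset they were -0.12 and +0.011 and neither was called, while 2 other exposures at 9 g were then called as higher. At 60 min, PMAIP1 measured 7.17 to 8.82 (median 8.01) CPM against 5.61 to 8.86 (median 6.88) in Ctrl60 (+0.18 ± 0.11, adjusted p = 0.246).

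BBC3 fell in the 2 shortest exposures. All libraries of hypg20s, from 5.54 to 6.74 CPM with a median of 6.26, and of hypg75s, from 5.15 to 6.79 CPM with a median of 6.34, lay below those of Ctrl, from 7.08 to 7.94 CPM with a median of 7.70. The changes were -0.28 ± 0.066 and -0.29 ± 0.076 (adjusted p = 0.0126 and 0.00882). With the GC offset BBC3 was called as lower in 7 of 8 comparisons. With 3 surrogate variables it was called as lower at 20 s (-0.29) but not at 75 s (-0.18), and 5 of 8 values were above 0. BAD passed the test at no time at 9 g, with log2 fold changes from -0.14 at 60 min to +0.11 at 20 s, though it was called as lower in 5 of 8 with the GC offset.

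Of the pore formers, BAK1 rose at 3 min and 15 min. Its libraries ran from 54.0 to 60.8 CPM with a median of 58.7 in Ctrl, from 61.9 to 72.5 CPM with a median of 65.3 in hypg3 and from 61.9 to 74.4 CPM with a median of 69.3 in hypg15, and every exposed library lay above every control. The changes were +0.18 ± 0.044 and +0.24 ± 0.053 (adjusted p = 0.00479 and 0.00138). The other 6 comparisons ranged from +0.017 to +0.12, all above 0. BAK1 was called at neither time with the GC offset (+0.030 and +0.011), and with library 75 kept, where its count is 0, the value at 15 min was -0.020. With 3 surrogate variables BAK1 was called at no time, with values from -0.038 to +0.085. Both times are those with library numbers from 69 to 80, which cannot be told apart from the exposure. BAX passed at no time (4 of 8 were called as lower with the GC offset), and ran from -0.056 at 7 min to +0.11 at 15 min.

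Differences between times were tested directly. Among the 7 times that share Ctrl, all 10 members differed, where 55.7% of all genes did. Under the GC offset, for which no share of all genes is given, 6 did, without MCL1, BBC3, BAX and BAK1. Over the 5 times whose libraries carry the numbers 1 to 48 there were 4, namely BCL2L1, PMAIP1, BID and BAD, against 14% of all genes. Between hypg15 and hypg3, whose libraries carry neighbouring numbers, 0 members differed (edgeR; 1 at an unadjusted p under 0.05, PMAIP1 at -0.35 ± 0.12; DESeq2, 0), against 2.54% of all genes. The effect at 60 min differed from that at 15 min in 3 members, where 2.87% of all genes did. They were MCL1 (by +0.45 ± 0.12, adjusted p = 0.0387), BCL2L11 (+0.56 ± 0.097, 0.00199) and PMAIP1 (+0.72 ± 0.15, 0.00915), each higher at 60 min. BID did not pass in this contrast, at +0.044 ± 0.084. The length of exposure, HEPES in the column names of Ctrl60 alone and the library numbers of hypg15 cannot be told apart in it.

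Exposure for 5 min was given at both accelerations, 9 g in pipettes (hypg5) and 300 g in the other experiment (wait1min), so their effects could be set against each other. All 10 members differed, where 72.6% of all genes did. The difference, 300 g minus 9 g, was +1.26 ± 0.16 in PMAIP1 and +1.11 ± 0.17 in BCL2, and -1.10 ± 0.11 in BAD, -1.0 ± 0.092 in BCL2L1 and -1.0 ± 0.092 in BAK1. BBC3, BAX and BID differed by -0.68, -0.65 and -0.64, and MCL1 and BCL2L11 by -0.19 and -0.15. With the GC offset the difference of PMAIP1 turned to -0.39 and that of BBC3 was -0.0092 and not called. Centrifuge, cell density and the time to lysis differed with the acceleration and cannot be told apart from it.

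The summed level of the 3 pro-survival genes, as a share of all 10 per length, was 34.3 ± 0.6% in Ctrl (mean ± SD, n = 6) and had means from 35.1% to 36.2% in the groups at 9 g that share it, of which hypg75s and hypg5 lay wholly above it. In Ctrl60 it was 33.9 ± 0.56% and in hypg60 35.8 ± 1.82% (n = 6 each), with overlap. In Ctrl300 it was 36.3 ± 0.56% (n = 4), and after 300 g it was 38.1 ± 0.21% at wait1min, 38.8 ± 0.38% at wait4min and 39.7 ± 0.35% at wait15min, with every spun library above every control. In heat it was 34.6 ± 0.91%, with every library below every control. These shares are descriptions of transcript and were not tested.

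Another 50 genes of the intrinsic pathway were read in the same fits, from a list of further BCL2 family genes, upstream regulators, the apoptosome and caspases, inhibitors of apoptosis, outer membrane channels, death effectors and MCL1 ubiquitin enzymes. In order of time, 2 rose and 6 fell of 46 tested at 20 s, 3 and 9 of 47 at 75 s, 4 and 19 of 46 at 3 min, and 1 and 0 of 46 at 5 min. They were 1 and 5 at 7 min, 3 and 7 at 9 min, 6 and 19 at 15 min and 5 and 8 at 60 min, of 46 each. Of all genes tested, 6.66% rose and 8.58% fell at 20 s, 16.8% and 14.4% at 75 s, 16.9% and 24.4% at 3 min and 4.33% and 1.69% at 5 min. The shares were 6.64% and 6.19% at 7 min, 11.3% and 8.34% at 9 min, 25.4% and 27.9% at 15 min and 17.1% and 13% at 60 min. The median log2 fold change over the list was -0.093 at 3 min and -0.10 at 15 min, against -0.016 and 0.017 over all genes, and the difference was not tested. With 3 surrogate variables the 19 falls became 2 at 3 min and 0 at 15 min. The share of all genes called with these variables was not set beside them.

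Of 46 of these genes, 4 were called in the same direction in at least 6 of 8 comparisons at 9 g, as were 8.58% of all genes tested in each (4.9% upward), so the list lay near the background. CYCS, which encodes cytochrome c, was lower in 6, from -0.76 at 60 min to -0.24 at 9 min among those called. BNIP3, a mitophagy receptor raised in hypoxia, was lower in 7, with -0.48 at 15 min. PARP1, a DNA repair enzyme and caspase substrate, was lower in 6, with -0.32 at 15 min. HUWE1, the ubiquitin ligase also named MULE that marks MCL1 for degradation, was higher in 7, with +0.45 at 60 min. With 3 surrogate variables CYCS and HUWE1 stood at +0.064 and -0.012 at 15 min.

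After 300 g, 19 of the 47 pathway genes tested rose and 23 fell at each waiting time, and in heat 5 rose and 9 fell. Of all genes tested, 41.4% rose and 40.1% fell at wait1min, and 10.6% and 10.2% in heat. By group at wait1min, against the same 41.4% and 40.1%, inhibitors of apoptosis and their antagonists had 4 up and 2 down of 7, the apoptosome and caspases 4 and 4 of 9, upstream regulators 5 and 3 of 9, further family members 3 and 5 of 10, MCL1 ubiquitin enzymes 3 and 1 of 4, outer membrane channels 0 and 3 of 3, and death effectors 0 and 5 of 5. A change above 1 on the log2 scale was called in at least 1 of 12 comparisons in 17 of 47 genes, 12 upward and 5 downward. Of all genes tested, 34.5% met that rule, 27.9% upward and 7.87% downward. Values are given for 9 of those with the largest changes, namely BIRC3 (+2.57 at wait1min), BIRC2 (+2.06) and XIAP (+1.58), inhibitors of caspases or of their activation, BIRC6 (+1.38), the death receptor FAS (+1.98), the p53 ligase MDM2 (+1.66), the MCL1 deubiquitinase USP9X (+1.49), BNIP3L (+1.46) and BCL2L15 (+1.32). All 9 rose. With the GC offset they ranged from +0.12 (BNIP3L) to +0.81 (MDM2) at wait1min. The 5 that fell, named after their values were seen, were the mitochondrial nuclease ENDOG (-1.11 at wait1min), the death receptor adaptor FADD (-1.05), BOK (-1.17), BIK (-1.04) and CDKN1A (-1.12). Under the GC offset ENDOG was at -0.59 and FADD at -0.61.

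The 3 members whose group means ranged most widely over the 15 groups were PMAIP1 (2.03 on the log2 scale), BAD (1.69) and BCL2 (1.48), and MCL1 ranged least (0.38). No correction for GC content was made here, and under the GC offset the changes of PMAIP1 were -0.20 at wait1min and +0.011 at hypg15. Among 13547 genes, those most like PMAIP1 in group means were ABHD3, TMEM41B and DUXAP9 (Pearson r = 0.992, 0.988 and 0.988). GPX4, ITM2C and ADRM1 were most like BAD (each r = 0.999), and APAF1, RNF150 and WDR26 most like BCL2 (r = 0.995, 0.994 and 0.993). Each r is over 15 group means, which fall into spun and unspun groups at 300 g, and is given as a description.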

How the data were processed

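Jurkat T cell RNA was sequenced by the authors in paired-end mode (directional, ribosomal RNA depleted), trimmed with Trim Galore 0.6.5 and aligned with STAR 2.7.3a per the submitters' processing notes. The deposited table holds raw counts of read pairs per gene over exons, made with featureCounts 2.0.3 per the file header (2.0.1 in the processing notes) on the reverse strand with Ensembl 104 (GRCh38). Multi-mapping and ambiguous reads were not counted under the settings in the header. Of the table's lines, 3 were broken and were left out. The members and all gene lists were chosen with earlier results of these data known.

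Counts were filtered (filterByExpr, minimum count 10) and TMM normalised, and each exposure was compared with its control by edgeR 4.0.16 quasi-likelihood tests (R 4.3.3), with Benjamini-Hochberg adjustment over all genes tested and a threshold of 0.05. Differences between times and between effects were contrasts in models of the groups involved. SE was taken from the F statistic. CPM and FPKM were scaled with TMM within each experiment, and the means over 15 groups over all 79 libraries used. Library 75 was left out. The code was tested on simulated data. Total counts of 22634465 to 41893490 per library set the precision. Pathway genes were named when called with a change above 1 on the log2 scale or called the same way in at least 6 of 8 comparisons at 9 g, up to 10 by mean change, and some named genes are not reported here. Alternatives were other size factors, total counts, no filter, DESeq2 1.42.0, a single model, offsets for GC content (GENCODE 29, longest transcript; 98.6% of genes with a mean count of at least 10) and exon length, 3 surrogate variables (sva 3.50.0) and leaving out libraries.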

Additional observations from a re-analysis of the deposited data

Results flagged for a closer look

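Single libraries stood apart from the rest of their group in 5 of 150 combinations of member and group, where chance gives about 1 in 20. MCL1 measured 124.7 CPM in library 54 of wait1min against at most 114 in the other 3. BAD measured 27.9 CPM in library 64 of wait15min, where the others held up to 32.1. BBC3 was lowest in library 25 of hypg5 at 4.98 CPM. BID was lowest in library 9 of Ctrl60 at 134.0 CPM and highest in library 40 of hypg9 at 144 CPM.

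The effects of exposure differed between 60 min and 15 min at 9 g in MCL1 (0.45 higher at 60 min on the log2 scale), BCL2L11 (0.56) and PMAIP1 (0.72). HEPES in the column names of Ctrl60 and the library numbers of hypg15 cannot be told apart from the time here. Between 300 g and 9 g for 5 min the effects differed in all 10 members, by 1.26 in PMAIP1, 1.11 in BCL2, -0.15 in BCL2L11, -0.19 in MCL1, -0.64 in BID, -0.65 in BAX, -0.68 in BBC3, -1.0 in BAK1, -1.0 in BCL2L1 and -1.10 in BAD. Under the GC offset the difference was -0.39 in PMAIP1, and that of BBC3 (-0.0092) was not called. Among the 7 times at 9 g that share a control, the adjusted p (edgeR) was 2.68e-06 for BCL2L11, 4.91e-05 for BID, 8.21e-05 for PMAIP1, 0.00305 for BCL2, 0.00344 for BBC3, 0.00461 for BCL2L1, 0.00625 for MCL1, 0.00696 for BAK1, 0.0120 for BAD and 0.0225 for BAX. Under the GC offset MCL1, BBC3, BAX and BAK1 did not pass.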

How the results depend on the processing

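Counts of members called at 300 g were 8 at each waiting time whichever single library was left out. Leaving out 1 library gave 1 to 3 members in heat and 5 to 7 at hypg15, the 7 without hypg15 replicate 77, which added MCL1 and BAX. In heat, MCL1 was lost without Ctrl300 replicate 51 or heat replicate 68, BCL2L11 was added without heat replicate 66 and BCL2L1 without heat replicate 67. Of 128 counts under other settings, 98 stayed within 1.5 times the reported one. With all groups in a single model they were 1 at hypg20s, 1 at hypg75s, 0 at hypg5, 1 at hypg7 and 4 in heat. With 3 surrogate variables they were 2 at hypg20s, 1 at hypg75s, 2 at hypg3, 1 at hypg7, 0 at hypg9 and 1 at hypg15. With the GC offset they were 5 at hypg5, 5 at hypg9, 8 at hypg60, 4 in heat and 6 among the times, and with both offsets (chosen after seeing the data) 5, 4, 7 and 5 at hypg5, hypg9, hypg60 and heat. The length offset gave 1 at hypg7 and 1 in heat, total counts 2 at hypg5 and 1 in heat, DESeq2 2 at hypg5, no filter 0 at hypg5, 1 at hypg7 and 1 at hypg9, and RLE size factors 0 at hypg5. Over the 5 times numbered 1 to 48, 4 members differed. These counts were not set against the shares of all genes called under the same settings. The cause of the shifts was not tested.

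Changes of sign were counted where a value was called under either setting, and their cause was not tested. With the GC offset the log2 fold changes became -0.095 for BAX at hypg3, -0.11 for BCL2L1, 0.011 for PMAIP1, -0.28 for BBC3, -0.25 for BAD and -0.12 for BAX at hypg15, -0.13 for BAX at hypg60, and -0.20, -0.23 and -0.35 for PMAIP1 at the 3 waiting times. In heat against wait1min they became 0.20 for MCL1, 0.18 for BCL2L11 and 0.33 for PMAIP1, for 300 g minus 9 g -0.39 for PMAIP1, and for BNIP3 at wait15min 0.13. With both offsets they were 0.19 for PMAIP1 at hypg3, 0.0073 for PMAIP1, -0.26 for BBC3, -0.28 for BAD and -0.11 for BAX at hypg15, -0.15, -0.17 and -0.28 for PMAIP1 at the waiting times, -0.15 for BAD in heat, -0.34 for PMAIP1 and 0.047 for BBC3 for 300 g minus 9 g, and 0.16 for BNIP3 at wait15min. With 3 surrogate variables they were 0.21 for MCL1, 0.019 for BCL2, 0.14 for XIAP and 0.12 for USP9X at hypg3, and 0.025 for PARP1 at hypg75s. At hypg15 they were then 0.26 for BCL2, 0.015 for BCL2L11, -0.0012 for BAK1, 0.042 for MDM2, 0.24 for XIAP, 0.27 for USP9X, 0.082 for BNIP3L, 0.064 for CYCS and -0.012 for HUWE1, and at hypg60 0.30 for MDM2, 0.064 for BNIP3L and 0.025 for BNIP3. Total counts gave 0.23, 0.25 and 0.20 for MCL1 and 0.18, 0.23 and 0.22 for BCL2L11 at the waiting times, 0.025 for MCL1 and 0.070 for BCL2L11 for 300 g minus 9 g, and 0.24 for BNIP3 and 0.033 for HUWE1 at wait15min. The length offset gave -0.20 and -0.26 for BNIP3 at wait1min and wait4min, and BAK1 was -0.020 at hypg15 with library 75 kept. Counts of other pathway genes called moved by over 1.5 times in 27 of 105 cases. Among the other single values, 2292 stayed on the same side of the threshold, 117 newly passed and 139 no longer passed. Direction was not compared where neither setting gave a call. Depth limits BBC3, with between 90 and 317 counts a library, and PMAIP1, with between 99 and 901.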
